A study of Homo sapiens with 4 samples.

Results

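The regions described here are the SATB1 ChIP-seq peaks of HepG2 cells that touched no peak of either other antibody of the study, called SATB1-only peaks below. They were chosen by the positions of the called peaks in all 3 lists, as the deposited SATB1 peaks that shared not even 1 bp with any SMRC1 or NFIC peak. Of 3296 SATB1 peaks, 662 met this rule (20.1%, exact 95% interval 18.7 to 21.5). The others were 1732 peaks with an SMRC1 peak only, 48 with an NFIC peak only and 854 with both. HepG2 is an established human liver cancer line. Its chromatin was fixed with 1% formaldehyde for 10 min and precipitated with an antibody to SATB1, SMRC1 or NFIC, giving 1 library for each. An input library is named by the labels and was not analysed here on its own. The intervals below therefore cover counting error only, no difference could be set against a replicate spread, and no test was made between classes of peaks.

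SATB1 is a nuclear protein best known from T cells, where it binds AT-rich DNA that unwinds readily and ties distant stretches of chromatin to the nuclear matrix. SMRC1 is the database name of SMARCC1, a core subunit of the SWI/SNF remodelling complexes, which slide and evict nucleosomes at active promoters and enhancers. NFIC belongs to the nuclear factor I family, which binds promoters and enhancers directly as dimers. A SATB1 site without either partner is thus a place where the SATB1 antibody gave a peak and these remodeller and factor antibodies did not. Not being listed is not the same as not being bound. The SMRC1 list of 29441 peaks and the NFIC list of 13643 peaks reached down to a −log10 q of 1.01 and 1.02, and a site just under that limit is missing from them.

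The limit of the rule ran through a continuum of positions. The nearest SATB1-only peak, on chromosome 1 at 154377444 to 154377752 (hg19, band 1q21.3), abutted an SMRC1 peak with a gap of 0 bp and lay 32 bp from an NFIC peak. The next lay 9 bp from an SMRC1 peak, on chromosome 6 at 30693988 to 30694329, and 10 bp from one, on chromosome 8 at 99952067 to 99952488. On the other side of the limit were SATB1 peaks that shared 1 bp with an SMRC1 peak (chromosome 14 at 23398715 to 23399097), 6 bp (chromosome 21 at 47744645 to 47744953) and 8 bp (chromosome 2 at 20866690 to 20867029). The folds of these 3 were 3.04, 2.79 and 3.27, and those of the 3 nearest SATB1-only peaks were 3.73, 2.80 and 4.22. In fold, these few peaks on the 2 sides of the limit thus overlapped. In reads at the summit they did not, with 74, 26 and 28 in the peaks that shared bases and 25, 19 and 18 in the SATB1-only peaks. The reads expected there as background, solved as described below, were 23.7, 8.67 and 7.86 against 5.96, 6.14 and 3.51.

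SATB1-only peaks held fewer reads than the other SATB1 peaks but stood on a lower background. The fold is the authors' ratio of summit reads to expected background reads, with 1 added to each. Solving it together with the deposited p-value gave back the number of SATB1 reads at each summit and the background, which is the number of reads the caller expected there. All 3296 SATB1 peaks were solved with a −log10 p within 0.01 of the deposited one. These values come from the same peak calling that defined the members, so they are given as a description. The median summit held 21 reads in SATB1-only peaks (20 to 22), against 33 (33 to 34) in peaks with SMRC1 only 34 (33 to 35) in peaks with both partners and 30 (19 to 34) in the 48 peaks with NFIC only. The median background was 4.38 expected reads (4.23 to 4.88) in SATB1-only peaks, against 8.94 (8.77 to 9.48) with SMRC1 only, 9.21 (8.77 to 9.65) with both and 7.02 (4.38 to 9.48) with NFIC only. Reads and background were thus both lower, and the background by the larger factor, in each of these comparisons of medians.

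**Figure D1:**
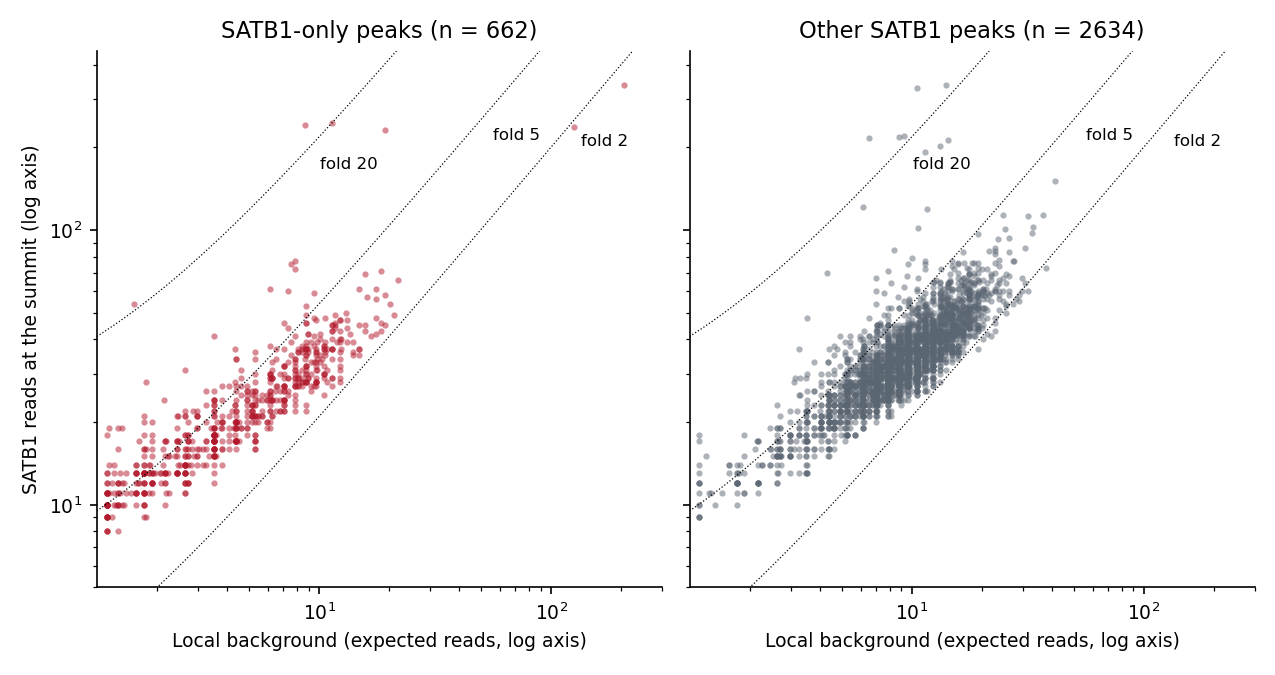
SATB1 reads at the summit (vertical, log axis) against the local background in expected reads (horizontal, log axis), 1 point per peak, for the 662 SATB1-only peaks on the left and the 2634 other SATB1 peaks on the right, with dotted lines at folds of 2, 5 and 20. The SATB1-only points reach from the lowest background of 1.21 upward and are densest at low background, while the other points gather near 9 expected reads; the pair of SATB1-only points at the far right have backgrounds of 126 and 206.

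The fold was higher in SATB1-only peaks than in those with SMRC1, and the significance lower. Their median fold was 3.99 (3.90 to 4.09), against 3.41 (3.37 to 3.48) with SMRC1 only, 3.42 (3.36 to 3.48) with both partners and 3.98 (3.60 to 4.39) in the 48 peaks with NFIC only. A fold of at least 5 was found in 132 of the 662 (19.9%, 17.0 to 23.2), against 6.35% with SMRC1 only, 7.26% with both and 14.6% with NFIC only, and 9.44% of the whole SATB1 list passed it. The median −log10 q ran the other way, at 4.40 (4.25 to 4.66) in SATB1-only peaks, against 5.65 (5.48 to 5.89) with SMRC1 only, 5.90 (5.60 to 6.20) with both and 5.85 (4.12 to 7.05) with NFIC only. A −log10 q of at least 10 was reached by 55 SATB1-only peaks (8.31%, 6.32 to 10.7), against 14.5% with SMRC1 only, 16.2% with both and 12 of 48 peaks with NFIC only, and by 13.8% of the whole list. SATB1-only peaks were also a little narrower, with a median width of 371 bp (362 to 381), against 400 bp (393 to 409) with SMRC1 only and 420 bp (409 to 434) with both. The rule itself depends on width, so this was not independent of it.

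The ranking of SATB1 sites by strength therefore depended on the measure. Among the 100 SATB1 peaks with the highest fold, 42 were SATB1-only, whereas among the 100 with the highest −log10 q 17 were. Of the 330 SATB1 peaks with the lowest folds 8.79% (5.96 to 12.4) were SATB1-only, and of the 330 with the highest 43.0% (37.6 to 48.6). By −log10 q the shares were 29.7% (24.8 to 34.9) in the lowest 330 and 12.1% (8.80 to 16.1) in the highest. By background the contrast was the widest of these 3 measures, with 68.5% (63.2 to 73.5) in the lowest 330, at 1.21 to 3.03 expected reads, and 6.06% (3.74 to 9.21) in the highest. The lowest background in the list, 1.21 expected reads, occurred at 31 SATB1-only peaks (4.68%), against 8 of 1732 with SMRC1 only (0.462%), 2 of 854 with both (0.234%) and 3 of 48 with NFIC only (6.25%).

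At like background the folds were close. Below 3 expected reads the median fold was 4.87 (4.72 to 4.97) in 225 SATB1-only peaks, against 4.74 (4.41 to 4.97) in 59 peaks with SMRC1 only and 4.70 (4.41 to 4.91) in 34 with both. From 3 to 6 expected reads it was 3.90 (3.77 to 3.99) in SATB1-only peaks, against 4.15 (3.99 to 4.23) and 4.21 (4.08 to 4.45). From 6 to 10 it was 3.49 (3.37 to 3.64), against 3.60 and 3.51, and above 10 it was 3.03 (2.79 to 3.11), against 2.98 and 3.04. The fold intervals of SATB1-only peaks overlapped those of both other classes in 3 of these 4 ranges. From 3 to 6 and from 6 to 10 expected reads the SATB1-only median fold was the lowest. Median −log10 q, reads and width were lowest in SATB1-only peaks in all 4 ranges. From low to high background the median −log10 q was 3.94, 4.25, 5.35 and 5.69 in SATB1-only peaks. It was 4.06, 5.36, 5.92 and 5.84 with SMRC1 only, and 4.41, 5.97, 5.79 and 6.51 with both. The 225 SATB1-only peaks below 3 expected reads are a large part of the 662, while 59 of 1732 and 34 of 854 peaks lay there in the other classes. These ranges were chosen after the backgrounds had been seen. The background was itself solved from the fold and p-value. A range of background therefore limits the folds that a listed peak of any class can have, and the closeness was in part set in advance. Whether background accounts for the difference in fold was not tested.

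A few SATB1-only peaks were among the strongest SATB1 sites of all. The leading one lay on chromosome 10 at 63660811 to 63661519 (band 10q21.2) and ranked 3 in the SATB1 list, with 242 reads over a background of 8.67, a fold of 25.1 and a −log10 q of 245. An SMRC1 peak began 940 bp away from it, and the nearest NFIC peak was 63173 bp away. Next came a peak of 1206 bp on chromosome 2 at 44588680 to 44589885 (2p21), with 246 reads, a fold of 20.0 and a −log10 q of 223. That site was isolated, 69716 bp from the nearest SMRC1 peak and 203368 bp from the nearest NFIC peak. The third, on chromosome 7 at 99716708 to 99717356 (7q22.1), had 232 reads and a fold of 11.5 over a background of 19.3. These 3 had over 200 reads each, far above the SATB1-only median.

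Below them reads and −log10 q dropped steeply, while the fold did not at first. The peak on chromosome 1 at 230218509 to 230219333 (1q42.13) had 54 reads over a background of only 1.60 and a fold of 21.2, and lay 851 bp from an SMRC1 peak. Peaks on chromosome 17 at 21002336 to 21002876 (17p11.2), chromosome 1 at 20960459 to 20961211 (1p36.12) and chromosome 12 at 56131879 to 56132410 (12q13.2) had 77, 75 and 72 reads and folds of 8.77, 8.85 and 8.21. The remaining peaks of the leading 10 by −log10 q were on chromosome 2 at 21227712 to 21232164 (2p24.1, fold 8.67), chromosome 15 at 99645180 to 99645750 (15q26.3, fold 7.34) and chromosome 13 at 99473322 to 99473898 (13q32.3, fold 9.29). Outside these 10, the highest folds were 10.4 on chromosome 19 at 6670876 to 6671455 (28 reads), 8.90 on chromosome 11 at 130164495 to 130164936 (19 reads), 8.81 on chromosome 11 at 9573567 to 9573913 (31 reads), 8.59 on chromosome 19 at 56934736 to 56935224 (18 reads) and 8.49 on chromosome 16 at 21513198 to 21513520 (19 reads). At the weak end, the lowest −log10 q values were 1.13 on chromosome 5 at 179334625 to 179334971 (12 reads), 1.30 on chromosome 17 at 58498788 to 58499096 (22 reads) and 1.33 on chromosome 6 at 133140735 to 133141081 (25 reads).

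SATB1-only peaks lay at widely varying distances from the peaks of the other lists. The median distance from edge to edge was 9905 bp (8588 to 10931) to the nearest peak of either list, 12.03 kb to the nearest SMRC1 peak and 27.79 kb to the nearest NFIC peak. An SMRC1 or NFIC peak lay within 1 kb of 97 SATB1-only peaks (14.7%, 12.05 to 17.6), within 5 kb of 227 (34.3%, 30.7 to 38.0) and within 20 kb of 450 (68.0%, 64.3 to 71.5). The nearest neighbour was an SMRC1 peak in 503 of 662 cases (76.0%). The SMRC1 list was also the longer, and these distances rest on the positions that the rule used. They were not set against the distances of other positions in the genome. Over all bands the lists held 9.51 SMRC1 and 4.41 NFIC peaks per Mb. Closeness to the other lists was thus not shown to be particular to these sites.

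The 97 SATB1-only peaks within 1 kb of another list differed in their values from the distant ones. Their median background was 7.32 expected reads (6.23 to 8.40), against 4.34 (3.52 to 4.38) for the 353 at 1 to 20 kb and 3.52 (3.51 to 4.38) for the 212 beyond 20 kb. Their median summit held 27 reads (24 to 29), compared with 20 (19 to 21) and 20 (17 to 22), and their median fold was 3.54 (3.34 to 3.73), compared with 4.07 (3.90 to 4.19) and 4.12 (3.98 to 4.42). In background and fold the near peaks thus lay between the distant SATB1-only peaks and the peaks that overlapped SMRC1. The median −log10 q was 4.40, 4.41 and 4.35 in the near, middle and far peaks, with overlapping intervals.

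**Figure D2:**
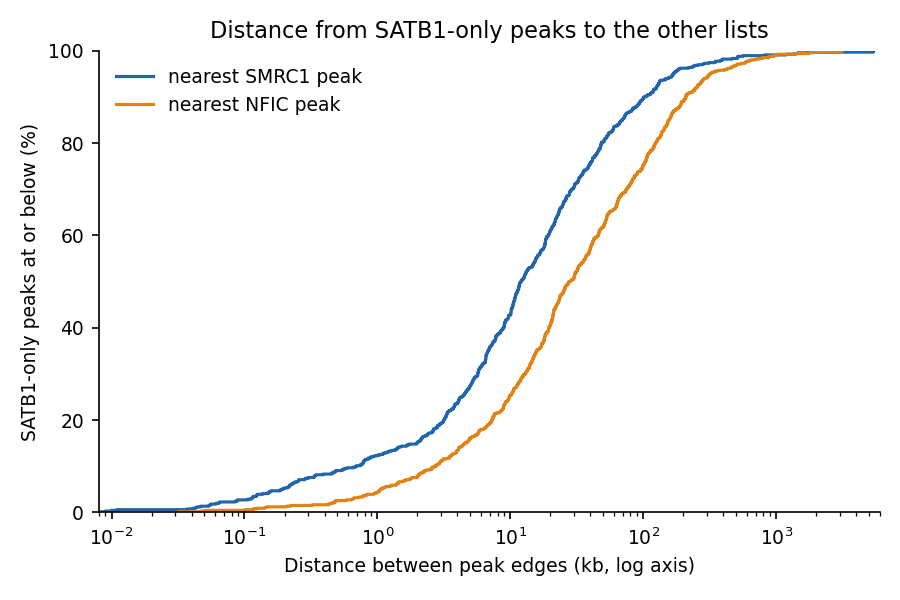
Share of the 662 SATB1-only peaks (vertical, percent) whose nearest SMRC1 peak (blue) or NFIC peak (orange) lies at or below a given distance between edges (horizontal, kb, log axis). The SMRC1 curve reaches 12.4% at 1 kb, 61.0% at 20 kb and 89.7% at 100 kb, and the NFIC curve 4.38%, 40.6% and 75.4%.

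SATB1-only sites were unevenly spread over the chromosomes. Chromosome 19, which is gene-rich and carries large clusters of zinc finger genes, had 62 SATB1-only peaks out of 188 SATB1 peaks (33.0%, 26.3 to 40.2). On chromosome 21 they were 15 of 37 (40.5%, 24.8 to 57.9), and on chromosome 16 they were 49 of 190 (25.8%, 19.7 to 32.6). The lowest share among chromosomes with more than 1 SATB1 peak was on chromosome 2, at 45 of 336 (13.39%, 9.94 to 17.5), and chromosome 1 had 44 of 280 (15.7%, 11.7 to 20.5). The intervals of chromosomes 19 and 21 lay above the share in the whole list, and that of chromosome 2 lay below it. These chromosomes were picked by their shares from all chromosomes, and the intervals treat neighbouring peaks as independent. On chromosome 21, 8 of the 15 SATB1-only peaks lay in band 21q22.3. The background also differed between chromosomes. It had a median of 2.85 expected reads at the SATB1-only peaks of chromosome 19 and 1.90 at those of chromosome 21, against 5.26 at those of chromosome 2. At the other SATB1 peaks of these chromosomes the medians were 8.40, 7.18 and 13.3. Backgrounds did not follow the shares throughout. Chromosome 16 had medians of 4.36 at SATB1-only peaks and 12.3 at its other SATB1 peaks, while chromosome 1, with a lower share, had 3.52 and 7.86, and chromosome 6, with 24.5% SATB1-only peaks, had the highest SATB1-only median, 7.89. The part of the background in the shares was not tested.

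**Figure D3:**
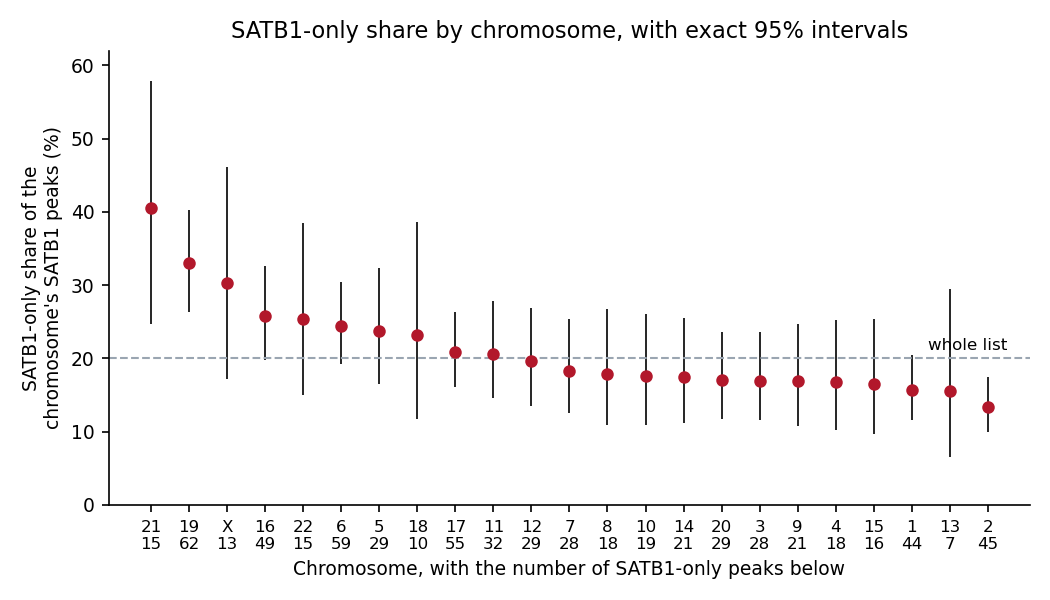
SATB1-only share of each chromosome's SATB1 peaks (vertical, percent), with exact 95% intervals that cover counting error only, for the chromosomes in falling order with the number of SATB1-only peaks under each name. Chromosomes 21 (40.5%) and 19 (33.0%), at the left, lie above the whole-list line at 20.1%, and chromosome 2 (13.39%), at the right, lies below it. Chromosome Y, with 1 SATB1 peak and 0 SATB1-only peaks, is not drawn.

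Chromosome bands, which stain more darkly the richer they are in A and T, gave a coarse view of base composition. In unstained bands, which are gene-rich, lay 410 of the 662 (61.9%, 58.1 to 65.6), against 64.8% of the peaks with SMRC1 only and 66.2% of those with both, with overlapping intervals. The darkest bands held 20 SATB1-only peaks (3.02%, 1.85 to 4.63), against 5.43% (4.41 to 6.60) and 5.85% (4.38 to 7.65). Those intervals also overlapped, and 0 of the 48 peaks with NFIC only lay there, which allows a share of up to 7.40%. In centromeric and variable bands SATB1-only peaks numbered 11 of 662 (1.66%, 0.832 to 2.95), against 3 of 1732 (0.173%, 0.0357 to 0.505) with SMRC1 only and 3 of 854 (0.351%, 0.0725 to 1.02) with both. The SATB1-only interval lay above that of peaks with SMRC1 only and overlapped that of peaks with both. The highest share was that of the peaks with NFIC only, 3 of 48 (6.25%, 1.31 to 17.2).

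The highest backgrounds of the set were found next to centromeres. A peak on chromosome 6 at 58778209 to 58778842 (6p11.1) had 237 reads over a background of 126 and a fold of 1.88. A peak on chromosome 1 at 121484753 to 121485099 (1p11.2) had 337 reads over a background of 206, and its fold of 1.63 was the lowest of the 3296. These backgrounds are far above the third highest among SATB1-only peaks, 21.9 on chromosome 6 at 144537155 to 144537946. Pairs of peaks lay close together in centromeric or variable bands on chromosome 20 at 26189023 to 26189339 and 26189935 to 26190314 (folds 3.07 and 2.42) and chromosome 21 at 10701707 to 10702046 and 10715894 to 10716202 (folds 4.83 and 5.28). The pair on chromosome 21 was 5370109 and 5355953 bp from the nearest SMRC1 peak. How far reads from repeated sequence contribute there was not tested. All of the peaks in this paragraph were chosen after their values were seen.

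Among bands of at least 2 Mb, 3 held the largest numbers of SATB1-only peaks. Band 19p13.3 held 18 SATB1-only peaks of 57 SATB1 peaks (31.6%, 19.9 to 45.2), band 6p22.1 held 16 of 22 (72.7%, 49.8 to 89.3) and band 16p13.3 held 10 of 33 (30.3%, 15.6 to 48.7). The intervals of 19p13.3 and 16p13.3 include the share in the whole list, and by share other bands of this size stood higher, such as 11p15.5 with 9 of 18 and 19q13.12 and 19q13.43 with 6 of 10 each. The smaller band 6p22.2, next to 6p22.1 and named after its value was seen, held 12 of 20 (60.0%, 36.1 to 80.9). All 12 lay in a group of 7 and a group of 5 neighbouring peaks, described below, and 3 of those in 6p22.1 formed another group. The intervals for these bands treat neighbouring peaks as independent. Together, 6p22.1 and 6p22.2 contained 28 of the 662 SATB1-only peaks (4.23%, 2.83 to 6.06), against 6 of 1732 with SMRC1 only (0.346%, 0.127 to 0.752) 6 of 854 with both (0.703%, 0.258 to 1.52) and 2 of 48 with NFIC only (4.17%, 0.509 to 14.3). As textbook background, this stretch of chromosome 6 carries the major histone gene cluster and a large cluster of transfer RNA genes. No gene annotation of hg19 was used here, so no peak was assigned to a gene.

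**Figure D4:**
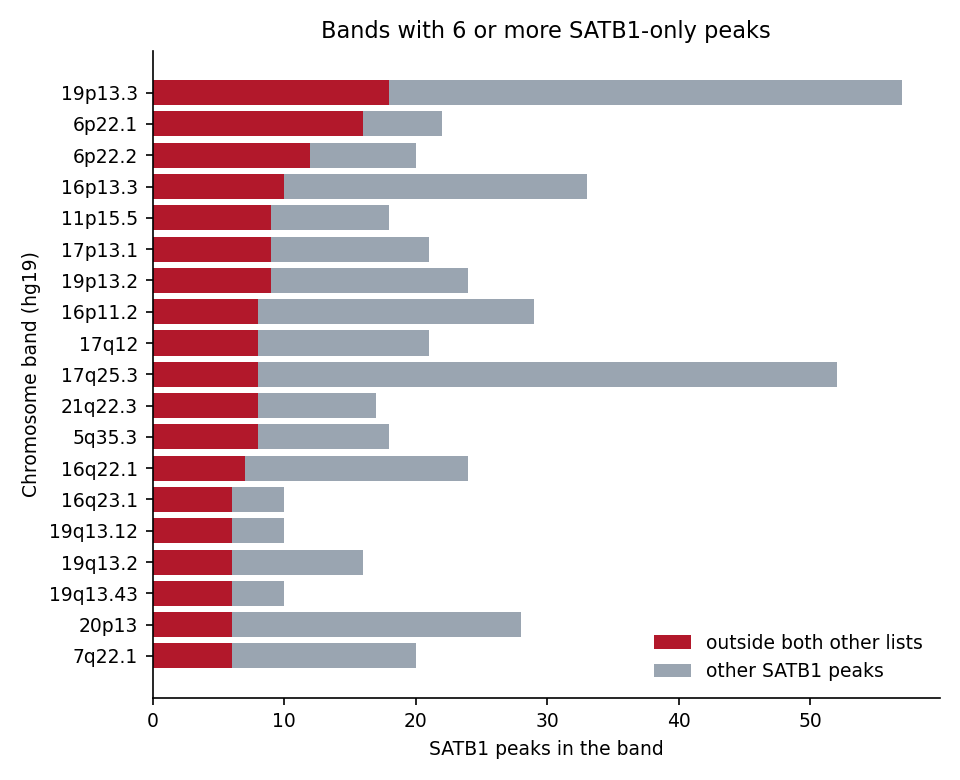
SATB1 peaks in each chromosome band with 6 or more SATB1-only peaks (horizontal, number of peaks), split into SATB1-only peaks (red) and other SATB1 peaks (grey). In 6p22.1 (16 of 22) and 6p22.2 (12 of 20) the red part is the larger, while in 17q25.3 it is 8 of 52.

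The SATB1-only peaks of 6p22 did not share the low background of the whole set. Across these 28 the median background was 8.77 expected reads (range 3.51 to 14.9), the median summit held 34 reads (16 to 53) and the median width was 513.5 bp, all above the SATB1-only medians. Folds ran from 2.64 to 5.53 with a median of 3.58. The other SATB1 peaks of these bands were few, 6 in 6p22.1 and 8 in 6p22.2. They had a median background of 10.1 expected reads and a median fold of 3.16. Against these, SATB1-only peaks of 6p22 had the lower median background and the higher median fold, but no interval was computed for these medians. The region was not empty of the other proteins. Band 6p22.2 had 46 SMRC1 peaks (25.6 per Mb) and 13 NFIC peaks (7.22 per Mb), against 9.51 and 4.41 per Mb over all bands. In 6p22.1 the densities were 12.6 and 6.47 per Mb. Of the 28 peaks, 17 lay within 20 kb of an SMRC1 or NFIC peak without touching it.

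Bands 19p12, 19q13.12 and 19q13.43, which are known for their clusters of KRAB zinc finger genes, were grouped after the chromosome values had been seen. They held 14 SATB1-only peaks of 23 SATB1 peaks (60.9%, 38.5 to 80.3). Their median background was 2.70 expected reads and their median summit held 16.5 reads, both below the values in 6p22. The background was not low throughout, with a range of 1.21 to 10.6 and a median of 6.58 at the 6 sites of 19q13.12. Their folds ran from 3.20 to 8.59 with a median of 4.23, and 3 of the 14 lay within 20 kb of an SMRC1 or NFIC peak. Other bands of chromosome 19 were left out of this grouping. Among them, 19p13.2 held 9 SATB1-only peaks of 24 (37.5%, 18.8 to 59.4), an interval that includes the share in the whole list. The share of 60.9% is thus that of picked bands and not of zinc finger clusters in general.

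Some SATB1-only peaks stood beside each other. When SATB1-only peaks separated by at most 20 kb were joined, a distance chosen after the positions had been seen, 133 of the 662 (20.1%, 17.1 to 23.3) had at least 1 neighbour of their own kind, against 12.9% (11.3 to 14.5) of peaks with SMRC1 only 13.9% (11.7 to 16.4) of peaks with both and 2 of 48 (4.17%) with NFIC only. The 133 peaks formed 51 groups. These intervals treat peaks as independent, although a peak and its neighbour always count together. Peaks were joined only within their own class, so a run of peaks of mixed classes was split. For groups of 3 or more, the contrast with the 2 classes that overlapped SMRC1 was larger as a ratio of shares. There were 18 such groups with 67 SATB1-only peaks, whereas the 1732 peaks with SMRC1 only formed 5 with 15 peaks and the 854 with both formed 10 with 37. Of the 18 groups, 12 had no SMRC1 and no NFIC peak between their first and last member, and 16 held no other SATB1 peak. This was in part fixed by the rule, since the shortest of the 12 groups, of 1.53 to 3.83 kb, were covered to 48.8% to 87.5% by their members, which touch no such peak by definition. Most of the 12 had an SMRC1 or NFIC peak within 15 kb outside their span. An NFIC peak lay 146 bp from the group in 17p13.1 and 775 bp from that in 2p13.1. SMRC1 peaks lay 2273 bp from the group in 7q11.23 and 2646 bp from that in 3p21.2. The nearest peak of either list was 54801 bp away in 11q12.1 and 32584 bp away in 6p22.1.

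The largest groups were on chromosomes 6, 11, 2 and 19. In 6p22.2, 7 SATB1-only peaks spanned 39.6 kb at 26533054 to 26572623, and their folds ran from 2.64 to 5.53. The strongest of these, at 26568447 to 26569372, had 53 reads and a −log10 q of 18.9. A second group in the same band held 5 peaks at 26311286 to 26331838, of which 4 had folds between 3.55 and 3.72 and the fifth 2.69. Inside the spans of these groups lay 2 and 1 SMRC1 peaks, and no NFIC peak was listed in either. Chromosome 11 had 6 SATB1-only peaks within 16.2 kb at 2662452 to 2678607 (11p15.5), with 13 to 20 reads each and folds from 3.34 to 5.12. That band is known for an imprinted gene cluster that includes IGF2, H19 and the long noncoding RNA KCNQ1OT1. A further SATB1 peak in this span coincided with an NFIC peak, and no SMRC1 peak lay inside.

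Band 2p24.1, where APOB is located, the gene of the structural apolipoprotein of low-density lipoprotein made in liver, held a group of 5 at 21224102 to 21246758. Its second peak was the widest of all SATB1 peaks, 4453 bp at 21227712 to 21232164, with 61 reads at the summit, a background of 6.15 and a fold of 8.67. The other 4 were of ordinary width, from 312 to 580 bp, and had folds of 4.15, 4.25, 3.57 and 3.58 with 29, 24, 19 and 21 reads. Within this span lay 1 SMRC1 peak and no NFIC peak, and the first of the 5 peaks began close to sites of both, 473 bp from an SMRC1 peak and 478 bp from an NFIC peak. Just before the span, SATB1 peaks at −2.546 to −0.962 kb and −0.781 to −0.377 kb from its start overlapped peaks of both lists. On chromosome 19, 5 peaks lay within 14.7 kb at 6700723 to 6715444 (19p13.3, a band that also holds the complement gene C3), with 12 to 17 reads and folds from 3.16 to 5.08. No SMRC1 or NFIC peak lay within that span, although an SMRC1 peak began 3874 bp beyond it. Whether any of these peaks lies in the gene named as background for its band was not examined.

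**Figure D5:**
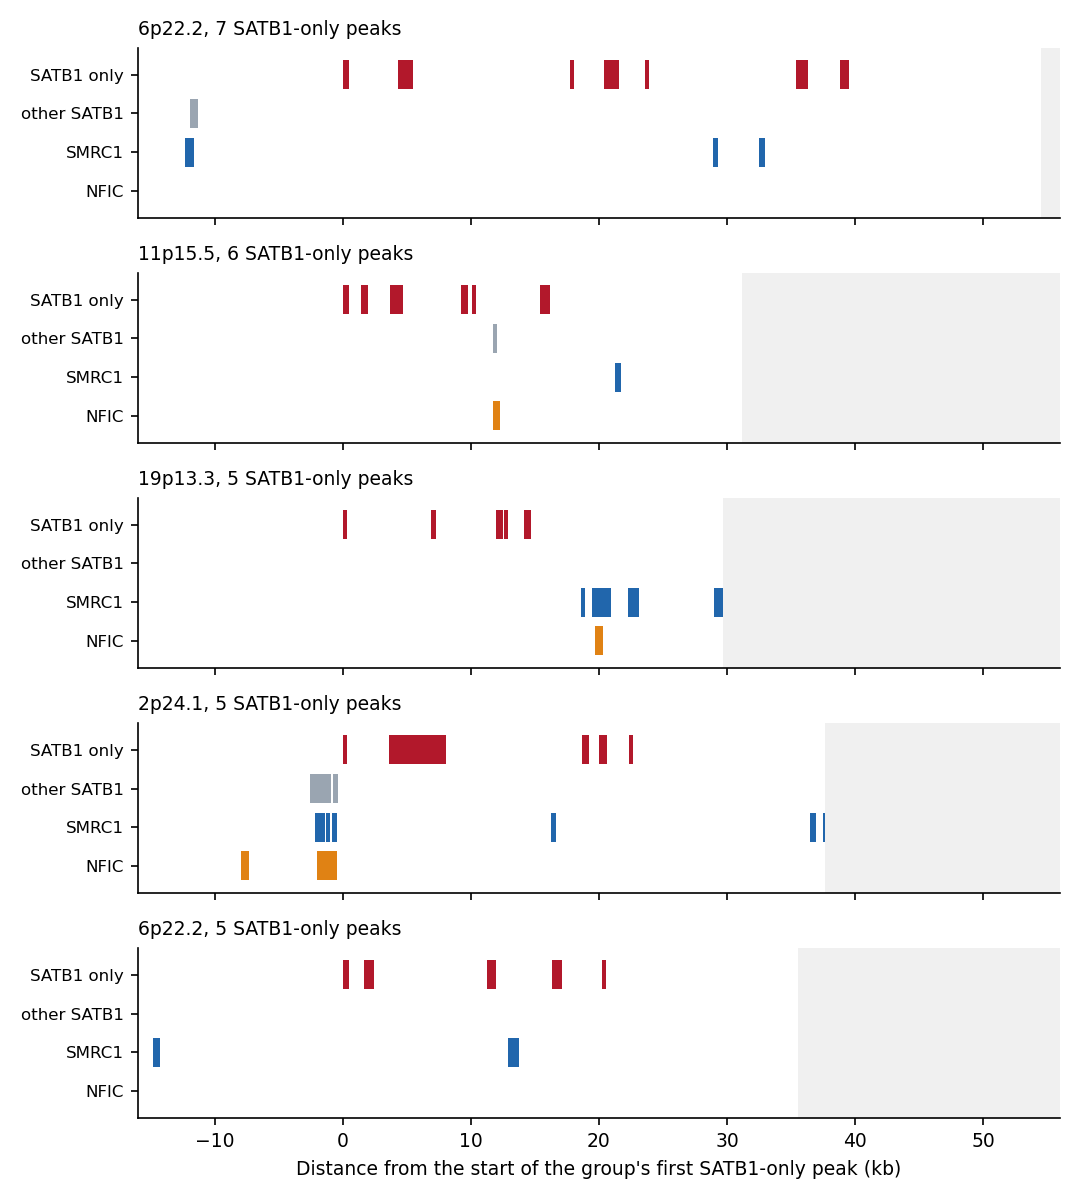
Peaks of the 5 largest groups of SATB1-only peaks and of 15 kb on either side, drawn to scale against the distance from the start of the group's first SATB1-only peak (horizontal, kb), with separate rows for SATB1-only, other SATB1, SMRC1 and NFIC peaks; the grey area is beyond the window and was not drawn. Within the spans of the groups, from the first to the last red bar, 2 SMRC1 bars lie in the 6p22.2 group of 7, 1 each in the 6p22.2 group of 5 and in 2p24.1, and 1 NFIC bar in 11p15.5; the broad red bar in 2p24.1 is the peak of 4453 bp.

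Smaller groups of 3 peaks were compact in several places. On chromosome 17 at 8124813 to 8126339 (17p13.1) 3 peaks covered 87.5% of 1.53 kb, and on chromosome 16 at 4433558 to 4435608 (16p13.3) 3 peaks covered 86.8% of 2.05 kb. The chromosome 17 group did not stand free. Another SATB1 peak, at −0.82 to −0.078 kb from its start, overlapped an NFIC peak. In the chromosome 17 group the reads ran from 27 to 42 and the folds from 2.42 to 4.33, and in the chromosome 16 group from 17 to 21 and from 3.34 to 8.30. Other groups of 3 peaks lay on chromosome 15 at 75505284 to 75508193 (15q24.2, folds 3.98 to 5.97), chromosome 3 at 51431888 to 51435714 (3p21.2, folds 5.98 to 7.96) and chromosome 16 at 75260532 to 75263083 (16q23.1, folds 4.73 to 5.68). On chromosome 6 at 74223393 to 74225870 (6q13, the band of the translation elongation factor gene EEF1A1) the folds were lower, from 3.29 to 4.06. Band 5q35.3, which like 17p13.1 is known for a transfer RNA gene cluster, had 3 peaks at 180600559 to 180618928 with folds from 2.98 to 3.77. Genes and clusters are named for some of these bands only, as background. Whether any peak of these groups lies in one of them was not examined.

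Wide peaks were present among the SATB1-only sites despite their low median width. A width of at least 1000 bp was reached by 20 of the 662 (3.02%, 1.85 to 4.63), against 16 of 1732 (0.924%, 0.529 to 1.496) with SMRC1 only, 26 of 854 (3.04%, 1.998 to 4.43) with both and 2 of 48 (4.17%) with NFIC only, and by 1.94% of the whole list. After the peak in 2p24.1, the widest were 2820 bp on chromosome 16 at 30788670 to 30791489 (16p11.2, fold 7.12, 37 reads), 1711 bp on chromosome 17 at 8022779 to 8024489 (17p13.1, fold 5.12, 49 reads) and 1607 bp on chromosome 3 at 51432942 to 51434548 (3p21.2, fold 7.96, 24 reads). The next, of 1562 bp and 1558 bp, were on chromosome 15 at 75506025 to 75507586 and chromosome 16 at 31092044 to 31093601. All 6 had folds above 5, and none lay within 1 kb of an SMRC1 or NFIC peak. These wide peaks were chosen after their values were seen.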

How the data were processed

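Peaks were analysed from 1 ChIP-seq library each for SATB1, SMRC1 and NFIC in HepG2 cells. The authors used Bowtie 1.1.2, SAMtools, deepTools and MACS2 2.1.1 on build hg19, per the submitters' processing notes. Their settings, peak limits and control library are not given in the sources that were used. The deposited lists have 10 columns in narrowPeak order. Multiplying −log10 q by 10 and dropping the decimals gave the deposited score of each peak but 2 in the SMRC1 list. Fold in the deposited lists is a ratio of reads to local background. The authors' caller gave p- and q-values at the summit, deposited as −log10.

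Overlap meant at least 1 shared bp. Reads n and background b were found from fold = (n + 1)/(b + 1) and the Poisson probability of more than n reads, and the calculation was tested on simulated data. Absolute depth is unknown. Shares have exact Clopper-Pearson 95% intervals and medians exact binomial 95% intervals, which cover counting error only; no test was made. Bands came from circlize 0.4.16 for hg19, by summit; positions are 1-based. Calculations used scipy 1.17.1, pandas 2.3.3 and numpy 2.4.6 under Python 3.11.15, and plots matplotlib 3.10.9.

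Named peaks were the 10 of highest −log10 q, the 5 of highest fold outside those, the 3 of lowest −log10 q, the 3 nearest to another list, the 3 overlapping peaks with the fewest shared bases and the 3 bands of at least 2 Mb with the most members; others were chosen after their values were seen. Members and lists were chosen with earlier results of these data known. Gene starts, gene lists, base composition and motifs were planned and not analysed here, since no hg19 annotation or genome was used; gene names are textbook background to a band. Other settings were stricter lists, other overlap rules and distances, and sets of bands or chromosomes left out.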

Additional observations from a re-analysis of the deposited data

How the results depend on the processing

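No paired analysis was possible because each antibody had 1 library. Of 61 alternative values, 53 stayed within the interval of the reported value or, for the number of peaks, within 1.5 times of it. The number of SATB1-only peaks was 565 when peaks within 1 kb of another list were left out and 755 when an overlap had to cover at least 50% of the SATB1 peak. Leaving out peaks within 1 kb put the median background at 4.06 expected reads and the share within 5 kb of another list at 23.01%, which follows from removing the nearest peaks. The share within 5 kb was 42.4% under that 50% rule and 41.3% with the rule applied to summits, and it was 19.2% for a limit of 2 kb and 68.0% for one of 20 kb. The share of SATB1-only peaks in groups was 16.9% with gaps of 10 kb and 25.7% with gaps of 50 kb. These gaps, and all alternatives for groups and for chromosome 19, were chosen after seeing the data, as were leaving out 6p22 or the centromeric and variable bands and counting each group once. The alternatives for gene starts and base composition were not run. With 1 library per antibody and unknown absolute depth, a site absent from the SMRC1 or NFIC list may lie just under its limit.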
